A study of Homo sapiens with 43 samples.

Results

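Chromosome 19 carries 240 protein-coding genes named ZNF followed by a number, and these 240 of the 20033 protein-coding genes of the RefSeq table are described here. The rule uses symbol and chromosome alone and no measured value, but it was set with earlier results of these data known. The 237 genes with such symbols on other chromosomes and the 1211 other protein-coding genes of chromosome 19 served for comparison. Most ZNF genes of this chromosome encode proteins with tandem C2H2 zinc fingers, small domains that each hold a zinc ion and together read a stretch of DNA. Many of these proteins also carry a KRAB domain, which recruits TRIM28 and through it the histone H3 lysine 9 methyltransferase SETDB1, and their best known task is to keep transposable elements silent. The genes arose by repeated local duplication and stand in dense clusters, so that many are close copies of their neighbours.

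The study mapped 4 targets by chromatin immunoprecipitation and sequencing after treatment of B-cell lymphoma cells with CDK-TCIP1, a bivalent small molecule that links the elongation kinase CDK9 to the transcriptional repressor BCL6. The established lines SUDHL5 and KARPAS422, derived from diffuse large B-cell lymphoma, received 30 nM CDK-TCIP1 or DMSO alone, and every culture, control or treated, contained 0.1% DMSO. CDK9 was mapped after 2 h in SUDHL5 with 2 antibodies, ab239364 and CST2316S, and in KARPAS422 with the second of them, with 2 treated and 2 DMSO lists of peaks each. RNA polymerase II phosphorylated on serine 2 (Ser2P, a mark of elongation, 2 lists a group) or serine 5 (Ser5P, a mark of initiation, 2 lists a group) of its C-terminal domain and total polymerase II (Pol II, 3 lists a group) were mapped in SUDHL5 after 2 h and 4 h of compound, and their DMSO cultures were taken at 4 h only. The 2 h and the 4 h polymerase comparisons share these DMSO lists, and the 2 h ones differ from them in time as well as in compound. The labels do not say whether numbered replicates came from separate cultures. Another 10 samples are input chromatin without a list.

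Each of the 33 lists is a set of peaks called in 1 sample, from 138 peaks in a Pol II list after 4 h to 28951 in the first Ser2P DMSO list, and the read depth behind it is unknown. B-cell genes were marked in these lists (7 of 7 had Ser5P in SUDHL5 and CDK9 in KARPAS422), T-cell and myeloid genes less widely (1 of 6 and 2 of 6), and 4 genes of other tissues had no peak in any list. A gene was counted in a list when a peak lay within 1 kb of either of its ends, and for Ser2P also when a peak lay anywhere over the gene with 2 kb on either side. A gained gene had a peak in each treated list of a comparison and in none of its DMSO lists, and a lost gene the reverse. With 2 or 3 lists a group these calls carry no test, so each count is set beside the percent of all protein-coding genes called the same way. Peaks are described by the authors' fold enrichment and by a percentile rank by q value, where 100 is the best peak of a list, and both values order peaks within their own list only.

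The promoters of 4 zinc finger genes described below are printed first, with 1 more from a gene that had no peak. The 250 bases before the RefSeq start are given 5′ to 3′ on the gene's strand, from RefSeq (GRCh38.p14). Capitals mark the motifs CCGGAA (the core read by ETS factors), CCAAT (the CCAAT box), GGGCGG (the GC box) and the word TTCCCAG, each on either strand. ZNF227 (chr19:44212282-44212531, plus strand), the 1 member with gained CDK9 in all 3 sets, and ZNF302 (chr19:34677428-34677677, plus strand), which had its CDK9 summits just upstream, are shown first. ZNF490 (chr19:12610814-12611063, minus strand) shares its start region and its CDK9 peaks with ZNF791, ZNF382 (chr19:36605063-36605312, plus strand) acquired Ser2P and Ser5P peaks, and ZNF708 (chr19:21329411-21329660, minus strand) has the median CpG content of a run of members that were mostly empty.
ZNF227: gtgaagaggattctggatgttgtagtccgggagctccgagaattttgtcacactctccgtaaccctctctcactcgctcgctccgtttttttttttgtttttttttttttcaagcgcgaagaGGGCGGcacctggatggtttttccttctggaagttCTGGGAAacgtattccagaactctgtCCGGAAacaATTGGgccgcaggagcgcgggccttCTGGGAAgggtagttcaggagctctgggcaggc
ZNF302: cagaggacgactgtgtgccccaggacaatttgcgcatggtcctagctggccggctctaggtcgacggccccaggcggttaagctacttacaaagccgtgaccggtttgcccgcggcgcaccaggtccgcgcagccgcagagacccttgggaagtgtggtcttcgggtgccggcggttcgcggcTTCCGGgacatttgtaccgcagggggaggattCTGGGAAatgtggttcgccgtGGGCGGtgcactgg
ZNF490: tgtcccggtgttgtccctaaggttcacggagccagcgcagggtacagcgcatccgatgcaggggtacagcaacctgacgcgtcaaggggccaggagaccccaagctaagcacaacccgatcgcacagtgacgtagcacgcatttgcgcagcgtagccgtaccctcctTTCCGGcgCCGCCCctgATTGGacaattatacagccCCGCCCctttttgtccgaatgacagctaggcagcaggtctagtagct
ZNF382: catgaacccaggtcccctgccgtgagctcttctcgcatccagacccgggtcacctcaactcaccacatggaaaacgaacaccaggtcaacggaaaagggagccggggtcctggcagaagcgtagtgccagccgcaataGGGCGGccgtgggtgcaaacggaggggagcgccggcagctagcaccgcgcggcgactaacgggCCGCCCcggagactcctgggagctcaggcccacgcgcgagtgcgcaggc
ZNF708: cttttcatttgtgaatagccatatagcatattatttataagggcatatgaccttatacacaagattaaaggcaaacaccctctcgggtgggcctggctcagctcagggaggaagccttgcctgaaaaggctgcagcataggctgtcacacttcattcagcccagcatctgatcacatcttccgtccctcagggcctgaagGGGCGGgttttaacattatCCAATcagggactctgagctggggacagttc

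Of the 240 zinc finger genes, 136 (56.7%) had a peak in at least 1 of the 33 lists, against 59.8% of all protein-coding genes, 71.7% of the ZNF genes on other chromosomes and 68.1% of the other genes of chromosome 19. The other 104 had none, and no member was in every list. ZNF101 and ZNF580 were in the most lists, 23 of 33 each, and ZNF428 and ZNF296 followed with 22. CDK9 reached 65 members (27.1%) in at least 1 of 12 lists, against 38.6% of all genes. The share of members with a peak was below that of all genes in 33 of 33 lists, and below both comparison groups in each of them as well.

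The deficit differed between targets, though Ser2P was counted over the whole gene and the other targets at the gene ends only. The ratio of the members' share to the share of all genes ran from 0.597 to 0.890 over the 6 Ser2P lists and from 0.641 to 0.820 over the 6 Ser5P lists. For CDK9 it ran from 0.316 to 0.604 with ab239364, from 0 to 0.401 with CST2316S in SUDHL5 and from 0.350 to 0.609 in KARPAS422. Pol II gave 0 to 0.533 over 9 lists. Of the 35 members with Ser5P in all 6 lists, 13 (37.1%) had CDK9 in both treated ab239364 lists and 5 (14.3%) in both treated CST2316S lists of SUDHL5, where 56.9% and 27.9% of the 4719 genes with Ser5P in all 6 lists did. Members with initiating polymerase held CDK9 at a lower share than other such genes, and this difference was not tested.

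**Figure D1:**
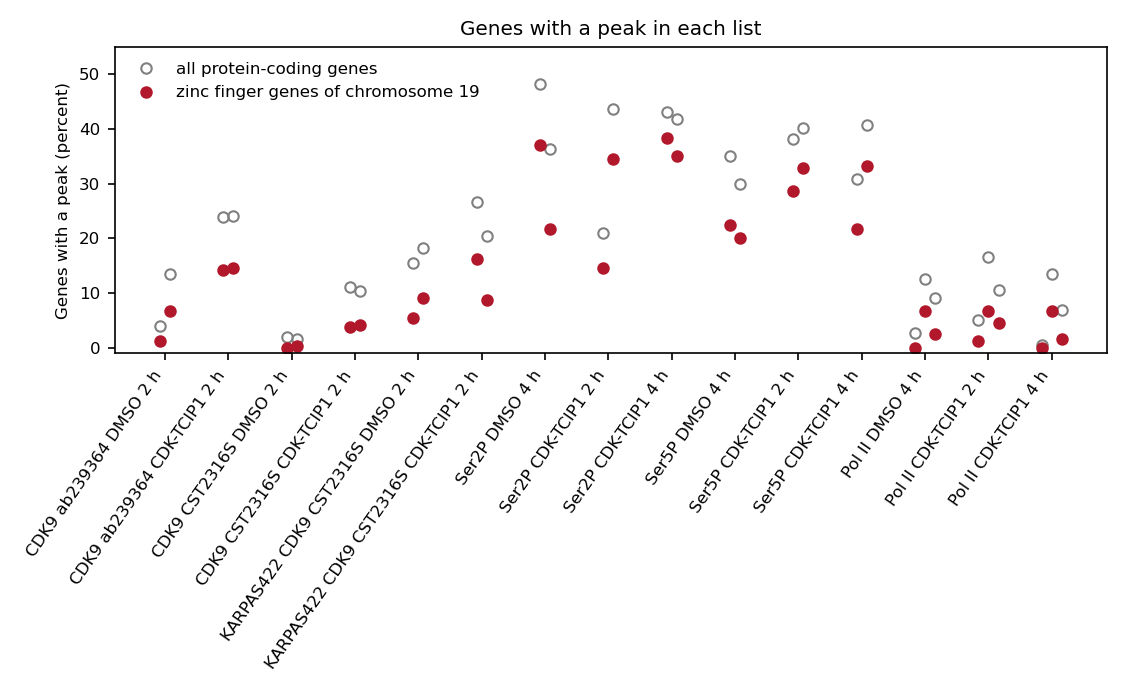
Percent of the 240 zinc finger genes (filled) and of all 20033 protein-coding genes (open) with a peak in each of the 33 lists, with the lists of 1 group side by side. Groups without a line name are SUDHL5. The filled point lies below the open one in every list. Ser2P, counted over a wider window than the other targets, reached 38.3% and 35.0% of members after 4 h. At gene ends alone, Ser2P after 4 h was at 76 and 73 members. Ser5P was at 69 and 79 after 2 h and at 52 and 80 after 4 h.

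Peaks of these genes lay at the start rather than the far end. Among pairs of a member and a list with a peak at a gene end, the peak was at the start alone in 88.0% of 83 pairs for CDK9 with ab239364, in 100% of 18 with CST2316S in SUDHL5 and in 97.7% of 86 in KARPAS422. The share was 82.7% of 330 pairs for Ser2P, 89.9% of 356 for Ser5P and 93.0% of 71 for Pol II, and the far end alone held between 0% and 6.02%. Median summits, in bases from the RefSeq start with upstream negative, stood at 28.5 for CDK9 with ab239364, -0.5 for Ser5P and -48 for Ser2P, against 25, 39 and -20 over all genes in the same order. With CST2316S they stood at 19 in SUDHL5, against 135 over all genes, and at 174.5 in KARPAS422, against 193. The far ends of ZNF genes are known from other cells as sites of H3K9 methylation brought by ZNF274, itself a member, which had Ser5P in all 6 lists at ranks of 25.3 to 58.2.

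Along the chromosome the members fall into 20 runs parted by gaps of over 500 kb, and 8 runs with 10 or more members hold 218 of them. The runs differed widely in how many members had any peak. The fullest were ZNF414 to ZNF846 on the short arm, with 12 of 13, ZNF565 to ZNF573 on the long arm, with 21 of 24, and ZNF264 to ZNF446 at the end of the long arm, with 33 of 41. Intermediate runs were ZNF628 to ZNF835 with 11 of 16, ZNF653 to ZNF791 with 15 of 25, ZNF575 to ZNF180 with 11 of 23 and ZNF175 to ZNF331 with 13 of 39.

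The emptiest run, ZNF101 to ZNF254 (chr19:19668153-24129968), had a peak at 5 of 37 members, against 131 of 203 members elsewhere (64.5%). The 5 were ZNF101, ZNF14, ZNF506, ZNF253 and ZNF682, and they stand together among the first 6 members of the run. The next 31 members of the run and ZNF536 beyond it formed an unbroken stretch of 32 members without a counted peak in any list, over 10.6 Mb (chr19:20078000-30713586). At 30 members the RefSeq start lies over 1 kb from the gene end, so that of the peaks there only Ser2P counts. ZNF43, ZNF723, ZNF730 and ZNF254 of this stretch are among them. No member lies between the end of the run at base 24129968 and the start of ZNF536 at base 30225592. Other genes in that gap were not counted. The stretch of 32 members includes ZNF91, a repressor of SVA retrotransposons, and ZNF43, while ZNF93, a repressor of L1 elements, stands empty between ZNF253 and ZNF682. The 2 other protein-coding genes in the interval of the run had no peak either. The next longest empty stretch held 14 members, ZNF880 to ZNF816.

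The promoters of the emptiest run were poor in CpG. Their median observed to expected CpG ratio was 0.438 over the 29 members with a RefSeq promoter, against 0.765 over all 210 member promoters and 0.763 over the 15841 promoters of the table, in windows from 250 bases before to 50 after the start. Members with a peak had a median of 0.791 (124 promoters) and members without one 0.656 (86 promoters). Other sparse runs were not poor in CpG, with medians of 0.849 for ZNF175 to ZNF331 and 0.817 for ZNF575 to ZNF180, against 0.749 and 0.782 for the fullest, ZNF414 to ZNF846 and ZNF565 to ZNF573. In the sequences above this is seen as 3 CpG in the 250 bases of ZNF708, against 14 for ZNF227, 19 for ZNF490 and 24 each for ZNF302 and ZNF382. Close paralogs share sequence, and how many reads were lost because they fit more than 1 place was not tested.

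**Figure D2:**
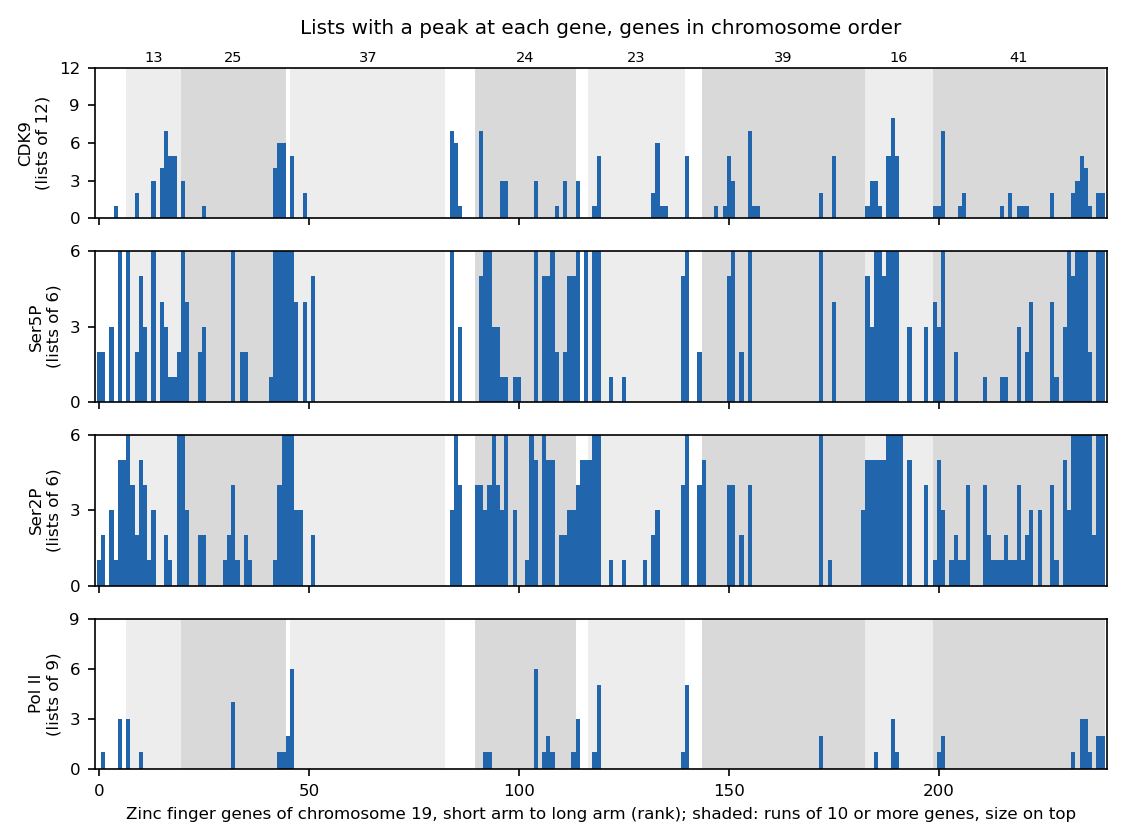
Number of lists with a peak at each zinc finger gene, for CDK9 (12 lists), Ser5P (6), Ser2P (6) and Pol II (9), with the 240 genes in chromosome order. Shaded blocks are the 8 runs of 10 or more members, with their size on top, and the run of 37 is empty beyond its first members.

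Several promoter words were more frequent in member promoters than in all promoters. CCGGAA, on either strand, stood in 54.8% of the 210 member promoters and in 22.8% of all 15841, with 50.0% of members with a peak and 61.6% of those without. Its longer form CCGGAAGT stood in 40 of 210 against 6.18%, more often in members with a peak (24.2%) than in those without (11.6%). AAGATGGC was in 6.19% against 3.91%, with 8.87% of members with a peak and 2.33% of those without. Also more frequent were CCAAT, in 52.9% against 36.4%, and the GC box, in 69.5% against 58.5%, while TATAAA was in 1.90% against 9.63%. ZNF promoters of other chromosomes held CCGGAA in 47.2%, CCGGAAGT in 14.9%, CCAAT in 44.1% and the GC box in 60%. AAGATGGC stood in 3.08% of them and TATAAA in 4.62%. Other promoters of chromosome 19 held CCGGAA in 22.4%, CCGGAAGT in 4.92%, CCAAT in 37.3% and the GC box in 65.5%. They held AAGATGGC in 5.64%, near the members' 6.19%, and TATAAA in 8%. TTCCCAG and its longer form TTCCCAGAA were searched after the first promoters had been read. They stood in 29.0% against 11.0% and in 10.5% against 1.09%. The ZNF promoters of other chromosomes held them in 20.5% and 4.62%, and other promoters of chromosome 19 in 13.7% and 1.44%. TTCCTNGAA, a form of the BCL6 recognition word, stood in 5 of 210 (2.38%, against 1.29%), and all 5 belonged to the 86 members without a peak. TTCCTAGAA stood in 1 member promoter. Duplicated promoters are not independent, and a word in a promoter is not a binding site.

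With ab239364 in SUDHL5, CDK9 peaks appeared at 12 zinc finger genes and disappeared from 0. The lists held 3 and 16 members in DMSO and 34 and 35 after CDK-TCIP1, so the groups did not overlap. All genes moved likewise, from 3.95% and 13.4% to 24% and 24.2%. The gained members were ZNF121, ZNF490, ZNF791, ZNF101, ZNF146, ZNF227, ZNF296, ZNF614, ZNF579, ZNF544, ZNF324 and ZNF446. They make 5% of members, below the 7.57% of all genes gained, and lost genes were 0.00998% of all. Of the 12, 8 had Ser5P in both DMSO lists and 11 in both lists after 2 h of compound. Ser5P was in all 6 lists at 6 of the 12, and at 995 of the 1516 genes gained over all. Those 12 include 2 pairs that share their peaks, ZNF490 with ZNF791 and ZNF324 with ZNF446, and 6 of the 12 share an end window with another gene. When the 915 best peaks of each list were used, the lists held 3 and 5 members in DMSO and 2 and 1 after compound, so the direction turned. It turned for all genes too, from 3.95% and 4.56% to 3.16% and 2.60%, with 0.19% gained and 0.629% lost. The DMSO list with 915 peaks is the shortest of the set, and leaving out the second DMSO list gave 20 gained members, the first treated list 23 and the second treated list 20, and without the first DMSO list 2 were lost.

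With CST2316S in SUDHL5, 6 members gained CDK9 and 0 lost it. The DMSO lists held 0 and 1 member (ZNF101) and the treated lists 9 and 10. All genes moved likewise, from 1.91% and 1.58% to 11.1% and 10.4%, and the lists grew from 1611 and 1264 peaks to 10005 and 9761. The gained members were ZNF490, ZNF791, ZNF302, ZNF227, ZNF296 and ZNF460, 2.5% of members against 6.31% of all genes gained, and 0% of all genes were lost. Of these 6, 4 (ZNF490, ZNF791, ZNF227 and ZNF296) were also gained with ab239364, which is 66.7% of this list and 33.3% of the other. With the 1264 best peaks of each list, 2 members were gained (0.833%, against 0.629% of all genes).

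In KARPAS422, 7 members gained CDK9 and 1 lost it. The DMSO lists held 13 and 22 members and the treated lists 39 and 21, so the groups overlapped for members. Over all genes they did not overlap, with 15.5% and 18.2% in DMSO and 26.7% and 20.4% after compound. ZNF266, ZNF561, ZNF546, ZNF226, ZNF227, ZNF581 and ZNF8 were gained (2.92%, against 4.38% of all genes), and ZNF524 was lost (0.417%, against 0.629%). ZNF227 was the only one of these 7 also gained in SUDHL5, with either antibody. ZNF581 was gained near the first base of its gene, with summits at -8828 to -8692 from its RefSeq start. Near that RefSeq start, both KARPAS422 DMSO lists already held CDK9 summits, at bases 55643222 to 55643579, which were counted for ZNF580. Of the 12 members gained with ab239364 in SUDHL5, 5 had CDK9 in a KARPAS422 DMSO list (41.7%, against 60.2% of all 1516 genes gained), and of the 6 gained with CST2316S, 4 did (66.7%, against 70.8% of 1265). CDK9 was in all 4 KARPAS422 lists at 8 members (3.33%, against 10.9% of all genes), namely ZNF121, ZNF146, ZNF428, ZNF766, ZNF665, ZNF580, ZNF460 and ZNF497. ZNF121, ZNF146 and ZNF460 are among the members gained in SUDHL5. The gained count rested on the second treated list, without which it was 19, and on the second DMSO list, without which it was 11. The lost count was 4 without the first DMSO list, 2 without the second and 2 without the first treated list, and with the 6689 best peaks of each list 2 members were gained and 2 lost (0.833% each, against 1.79% and 2.53% of all genes).

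Over the 3 sets, 20 members gained CDK9 in at least 1, 4 in at least 2 (ZNF227, ZNF296, ZNF490 and ZNF791), and ZNF227 in all 3. No member was gained in 1 set and lost in another.

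ZNF227 (chr19:44207547-44237268, plus strand, gene ID 7770) had no CDK9 peak in any of 6 DMSO lists and a peak in all 6 treated lists. In SUDHL5 the folds were 7.82 and 6.99 with ab239364 and 20.3 and 12.9 with CST2316S, and in KARPAS422 they were 24.1 and 11.6. Ranks ran from 86.2 to 97.8, among the best of each treated list. The 6 summits fell within 98 bases of each other, at -261 to -163 from the first base of the gene, where negative is upstream. From the RefSeq start this is -5246 to -5148, since that start lies 4985 bases inside the gene, so the peak marks an upstream edge of the locus and not the promoter printed above. Ser2P was at this edge in 0 of 2 DMSO lists, 1 of 2 lists after 2 h and 2 of 2 after 4 h, with folds of 5.01 and 3.06 at 4 h. At the printed promoter, CDK9 had no peak in any list, and Ser5P had one in 0 of 2 DMSO lists, 1 of 2 after 2 h and 1 of 2 after 4 h. ZNF226, its neighbour (chr19:44165100-44199490), showed a weaker pattern at its own start. CDK9 was there in both treated KARPAS422 lists, with folds of 5.27 and 2.29, and Ser2P in both 4 h lists, with folds of 2.59 and 2.78, and no DMSO list of any target held it.

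ZNF302 (chr19:34675979-34686396, plus strand) had strong CDK9 peaks after compound. Folds were 13.5 and 13.2 with CST2316S in SUDHL5 and 24.1 and 14.5 in KARPAS422, at ranks of 90.8 to 95.3. The second KARPAS422 DMSO list had a peak of fold 4.27 at rank 24.4, so the call was not met there. With ab239364 the second treated list had fold 6.87. Summits stood at -587 to -405 from the RefSeq start and near an end of SCGB2B2, with which ZNF302 shares a window. Ser5P lay over the printed promoter in all 6 lists, DMSO and treated, although its peaks were not counted because this start is 1699 bases inside the gene.

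ZNF490 (chr19:12576100-12610813, minus strand) and ZNF791 (chr19:12610920-12633834, plus strand) start back to back, and the same start peaks of CDK9, Ser5P and Pol II count for both. Ser2P over the gene with 2 kb on either side differed between them. In DMSO it covered 15.9% and 20.1% for ZNF791 against 0.744% and 0% for ZNF490. Their shared CDK9 peaks had folds of 5.05 and 4.09 with ab239364 and 4.64 and 4.74 with CST2316S after compound, and none in DMSO. The CDK9 summits of all lists were spread over 1077 bases and so do not mark 1 position. In KARPAS422 a peak was in the second DMSO list (fold 3.59) and the first treated list (fold 4.10). Ser5P was in all 6 lists, at 7.06 and 6.05 in DMSO, 10.6 and 8.89 after 2 h and 6.62 and 9.93 after 4 h.

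ZNF296 (chr19:45071500-45076478, minus strand), which shares windows with CLASRP and GEMIN7, had CDK9 folds of 7.26 and 5.97 with ab239364 and 2.86 and 2.51 with CST2316S after compound. ZNF101, the member in the most lists together with ZNF580, had no ab239364 peak in DMSO and folds of 4.07 and 6.35 after compound, while a CST2316S DMSO list held it (fold 3.63). ZNF580 had CDK9 in all 4 ab239364 lists, at 7.14 and 7.58 in DMSO and 12.0 in both treated lists. These summits stood at 2578 to 2608 from its RefSeq start, past the far end of this 2.47 kb gene. A treated peak of fold 12.0 also counted for ZNF581, with its summit at -61 from the ZNF581 RefSeq start. Which gene these peaks belong to was not tested. ZNF460 held CDK9 in 7 lists across both lines with summits within 76 bases, at -25 to 51 from its start. Its folds in KARPAS422 were 5.03 and 4.48 in DMSO and 9.01 and 6.16 after compound, while the ranks within each list, 78.8 to 86.2 in DMSO and 84.3 to 91.2 after compound, overlapped. ZNF561 had its 5 CDK9 summits within 3 bases, at -241 to -238 from its start. ZNF524, the lost member, had folds of 2.69 and 3.12 in the KARPAS422 DMSO lists, and it shares a window with FIZ1.

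**Figure D3:**
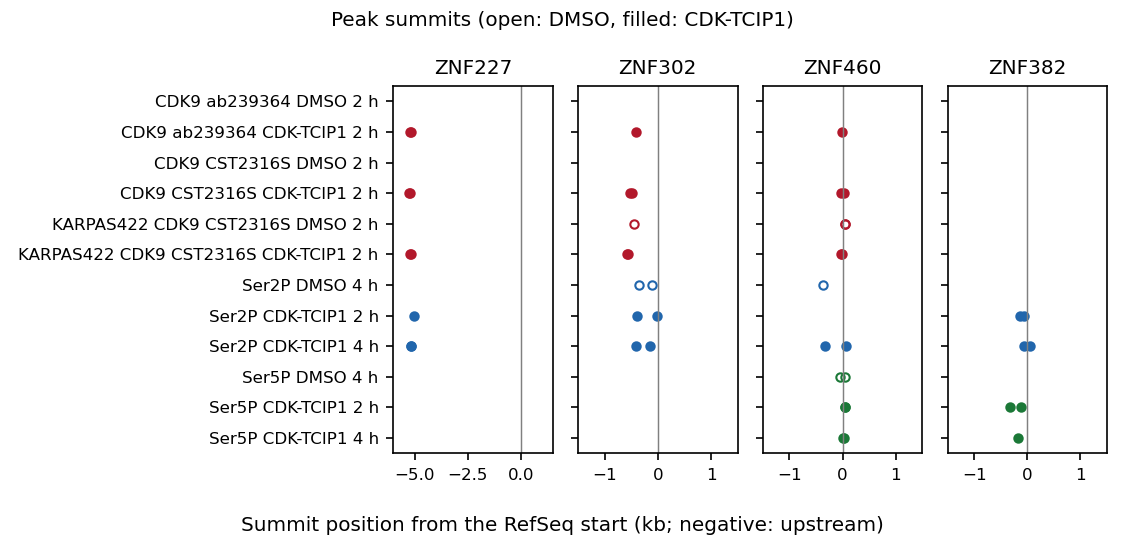
Distance in kb of the summits counted at the gene ends of ZNF227, ZNF302, ZNF460 and ZNF382 from their RefSeq starts, 1 row a group, open for DMSO and filled for CDK-TCIP1. The ZNF227 summits stack more than 5 kb upstream in all 3 CDK9 sets and in Ser2P, and all are filled. The x axis of ZNF227 is wider than the other three.

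Ser5P was counted at 54 and 48 members in DMSO, 69 and 79 after 2 h of compound and 52 and 80 after 4 h. The 2 h lists lay above both DMSO lists and the 4 h lists overlapped them. In percent this was 21.3 ± 1.77 in DMSO, 30.8 ± 2.95 after 2 h and 27.5 ± 8.25 after 4 h (mean ± SD, n = 2), while all genes gave 32.5, 39.2 and 35.8. With the 10816 best peaks of each list the members were 43 and 48, then 61 and 71, then 52 and 72. All genes moved likewise in that setting, from 29.0% and 28.9% in DMSO to 34.6% and 37.8% after 2 h and 30.8% and 37.9% after 4 h. Gained at 2 h were 9 members (3.75%, against 2.74% of all genes), namely ZNF426, ZNF121, ZNF627, ZNF181, ZNF529, ZNF382, ZNF579, ZNF805 and ZNF256. With a −log10 q of at least 5 the shares were 3.33% and 4.21%, so the order of members and all genes turned, and with equal numbers of top peaks they were 3.75% and 3.25%. Gained at 4 h were 5 (2.08%, against 1.4%), namely ZNF426, ZNF627, ZNF671, ZNF256 and ZNF329. None was lost at 2 h, against 0.26% of all genes, nor at 4 h, against 0.419%. ZNF627 was the strongest of these, with folds of 10.1 and 8.22 at 2 h and 6.58 and 7.96 at 4 h and no peak in DMSO. ZNF256 had 4.26 and 5.86 at 2 h and 5.33 and 4.58 at 4 h, and ZNF426 had 3.38 and 3.96, then 4.41 and 4.09. The 2 h count was 16 without the first DMSO list, 21 without the first treated list and 16 without the second, and 1 member was lost when either DMSO list was left out. The 4 h count was 9 when either DMSO list was left out and 23 without the first treated list, and losses were 1, 2 and 5 without the first DMSO, the second DMSO or the second treated list.

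Ser2P was counted at 89 and 52 members in DMSO, 35 and 83 after 2 h and 92 and 84 after 4 h, so both treated groups overlapped the DMSO lists. At 4 h, 8 members were gained (3.33%, against 1.37% of all genes) and 0 lost (against 1.21%). They were ZNF566, ZNF382, ZNF607, ZNF573, ZNF226, ZNF227, ZNF586 and ZNF552. Among genes without a DMSO peak the gained share was 5.52% of 145 members, 2.76% of all 9943 such genes, 5.21% of 96 ZNF genes of other chromosomes and 1.58% of 443 other genes of chromosome 19. The members' share was thus near that of ZNF genes elsewhere. With the 6519 best peaks of each list, 34 and 31 members had Ser2P in DMSO and 60 and 53 after 4 h, without overlap, and all genes moved likewise, from 22.7% and 22.1% to 27.8% and 29.5%. Gained in that setting were 10 members, 4.17% against 3.69% of all genes. The gained count was 29 without the first DMSO list, 14 without the first treated list and 16 without the second. The lost count was then 4, 3 and 2, and 9 without the second DMSO list.

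At 2 h, 1 member gained Ser2P, ZNF382 (0.417%, against 0.135%), and 2 lost it, ZNF506 and ZNF790 (0.833%, against 1.98%). The first 2 h list is short, with 6519 peaks. Without it 14 members were gained, and 3 were gained without the first DMSO list or the second treated list. The lost count was 6 without the first DMSO list, 19 without the second and 18 without the second treated list. ZNF506 had folds of 5.10 and 4.30 in DMSO and 3.64 in 1 list after 4 h. ZNF790 had 6.23 and 3.91 in DMSO and 6.89 in 1 list after 4 h.

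ZNF382 (chr19:36605313-36634114, plus strand), a KRAB zinc finger gene that starts back to back with ZNF529, was the 1 member gained for both phosphorylated forms. It had no Ser2P in either DMSO list, folds of 4.71 and 4.23 after 2 h and 7.52 and 5.00 after 4 h. Its Ser5P folds were 5.15 and 3.07 after 2 h and 4.78 in 1 list after 4 h, with none in DMSO. CDK9 and Pol II had no peak there in any list. ZNF529 had Ser2P elsewhere over its span in all 6 lists, so its Ser2P was not called although it shares these start peaks. Of the 8 members gained for Ser2P at 4 h, 4 already had Ser5P in DMSO. ZNF566 had it in both lists (folds of 5.25 and 3.85), and ZNF607 (fold 7.09), ZNF552 (fold 5.23) and ZNF573 (fold 3.01) in 1 each.

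**Figure D4:**
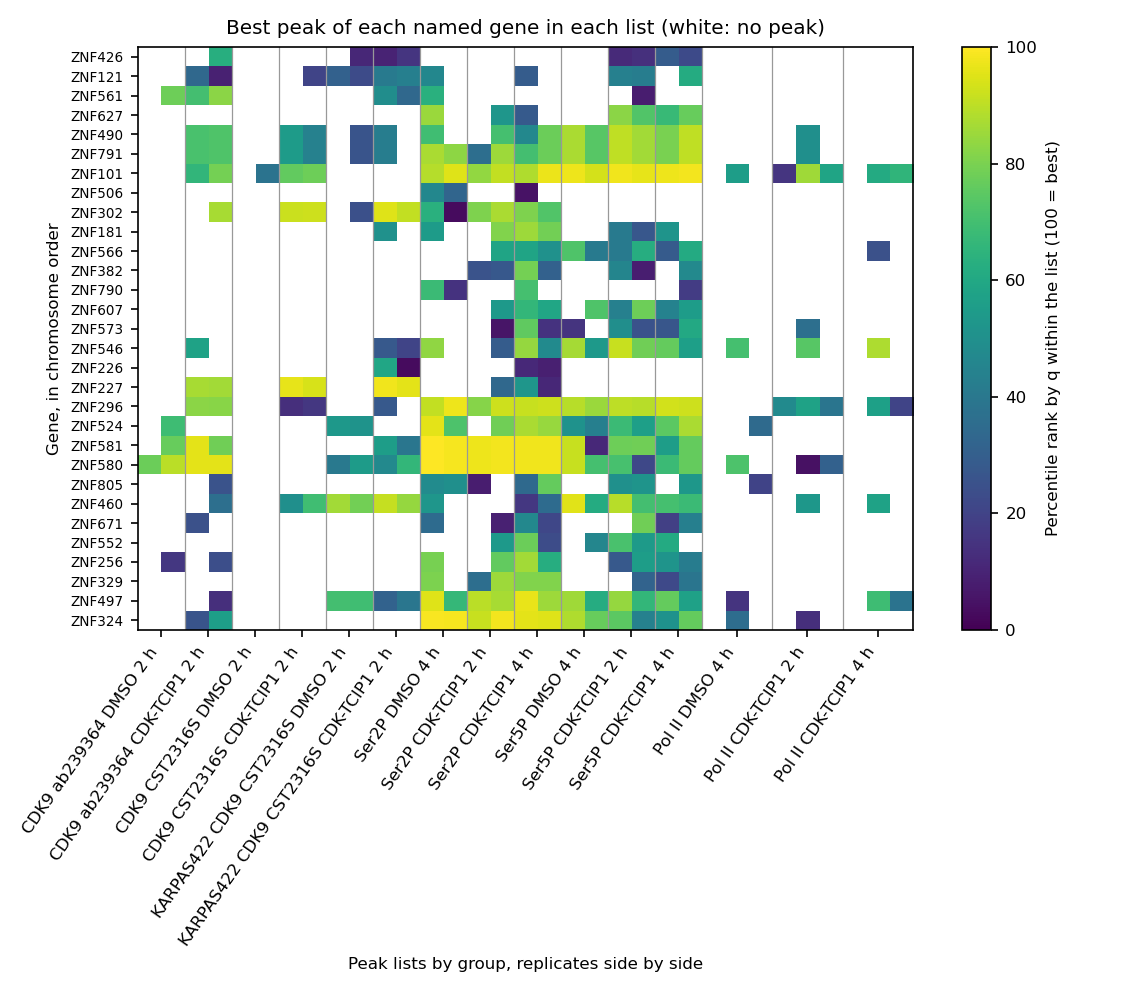
Percentile rank by q (100 is the best peak of a list) of the best peak of 30 named zinc finger genes in each of the 33 lists, genes in chromosome order and replicates side by side, white where no peak was counted. For Ser2P the best peak may lie anywhere over the gene with 2 kb on either side. ZNF227 and ZNF302 stand out as bright cells in the treated CDK9 columns, and ZNF580 and ZNF581 in the Ser2P columns.

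A few members had much of their window, the gene with 2 kb on either side, covered by Ser2P. The mean over 240 members of the percent of the gene (with 2 kb either side) under a Ser2P peak was 2.98 and 1.81 in DMSO, 0.865 and 2.33 after 2 h and 2.51 and 2.13 after 4 h. Members with a cover of 10% or more numbered 20 and 11 in DMSO, 4 and 14 after 2 h and 15 and 11 after 4 h. The 5 members named next were chosen for the largest cover in DMSO, so lower values later are no finding. In 3 of them the best Ser2P summits lay past the far end of the gene, in the flank. From the RefSeq start they stood at 2493 to 2573 for ZNF580 (2.47 kb long), 5341 to 6107 for ZNF296 (4.98 kb) and 8539 to 9258 for ZNF324 (8.36 kb). How much of the cover belongs to neighbouring genes was not tested. ZNF580, at 2.47 kb the shortest member, had 84.8% and 81.8% in DMSO, 55.4% and 72.6% after 2 h and 77.6% and 75.9% after 4 h. ZNF296 had 69.6% and 70.9%, then 36.8% and 65.7%, then 61.8% and 50.4%. ZNF581, which overlaps ZNF580, had 47.7% and 36.5% in DMSO and 40.1% and 40.5% after 4 h, and ZNF497 had 39.0% and 17.3% and then 22.2% and 8.72%. ZNF324 had 32.9% and 16.5%, then 13.3% and 27.8%, then 24.4% and 19.9%, which overlapped. In the first 2 h list the cover of all 5 was the lowest of the 6 lists, and the mean over members was too.

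**Figure D5:**
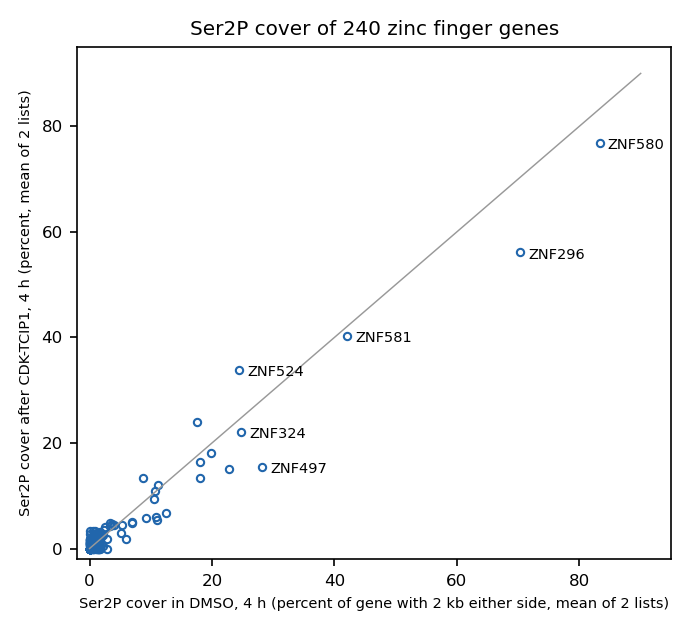
Percent of each of the 240 zinc finger genes (with 2 kb either side) covered by Ser2P peaks in DMSO against after 4 h of CDK-TCIP1, each the mean of 2 lists, with the line of equal cover. Most members lie near 0, and ZNF580 and ZNF296 lie far out.

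Total Pol II lists were short, and held 0, 16 and 6 members in DMSO, 3, 16 and 11 after 2 h and 0, 16 and 4 after 4 h. ZNF296 was gained at 2 h (0.417%, against 0.17% of all genes), with folds of 5.95, 6.35 and 5.54 and no peak in 3 DMSO lists, and 0 members were lost (against 0.00499%). The count was 3 without the second DMSO list and 2 without the first treated list. At 4 h, 0 members were gained (against 0%) and 0 lost (against 0.03%), with 1 gained without the first treated list. ZNF296 still had peaks in 2 of 3 lists at 4 h. It was thus gained for CDK9 with both antibodies and for Pol II at 2 h, and had Ser5P and Ser2P in all lists, DMSO included.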

How the data were processed

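Members were the RefSeq (GRCh38.p14) protein-coding genes on chromosome 19 whose symbol is ZNF and a number. Members, gene lists and calls were chosen with earlier results of these data known. The 43 samples include 33 with deposited MACS2 peak lists (hg38). Bowtie2, MACS2, Trim Galore, Picard, SAMtools, bedtools and deepTools are named in the submitters' processing notes, without order or settings. Peaks were called per sample. The lists deposited by the authors give fold enrichment over background as a ratio, a −log10 q value (lowest 1.30), a −log10 p-value and a score. No read totals or inputs were used, so depth is unknown. How reads with several matches were treated is not given in the sources used here.

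Peaks off chromosomes 1 to 22, X and Y (25 of 286536) were left out. Overlap by 1 base counted. Gene ends and gene IDs are those of RefSeq. Strand, starts and promoter sequence came from the RefSeq promoter table, which held 210 of 240 members and 15841 of 20033 genes; motifs were searched on both strands of its 300 bases, and CCGGAAGT, TTCCCAGAA and TTCCTAGAA overlap their shorter or wider forms. The call script, tested on simulated lists with 200 planted gains in each of the 9 comparisons (20033 genes), recovered 100% of them. Members were named by rule: ZNF227, those gained in 2 or more CDK9 sets, up to 5 gained and 5 lost per comparison by rank, those with CDK9 in every list (0), and the 5 with the largest Ser2P cover in DMSO. A clause on finger number was not applied, since no protein table was used here. Other members were named after their values were seen, where a full list, a run or a known role called for it. Python 3.11.15, pandas 2.3.3 and numpy 2.4.6 were used. Alternatives were a −log10 q of at least 5, equal numbers of top peaks, wider windows, summits, shared windows left out, each list left out, and, added after seeing the data, a window of 1 kb around the RefSeq start.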

Additional observations from a re-analysis of the deposited data

How the results depend on the processing

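Counts with summits in place of peaks, and with a window around the RefSeq start (chosen after seeing the data), stayed within 1.5 times the main ones. With −log10 q of at least 5, 7 members were gained with ab239364, and at 2 h 0 gained and 0 lost Ser2P. With equal numbers of top peaks, 0 members were gained and 1 lost with ab239364, 2 gained with CST2316S in SUDHL5, 2 gained and 2 lost in KARPAS422, 2 gained and 1 lost for Ser2P at 2 h, and 0 gained for Pol II at 2 h. With shared windows left out, 6, 2 and 0 members were gained with ab239364, with CST2316S in SUDHL5 and for Pol II at 2 h, 0 lost in KARPAS422, and 0 gained and 1 lost for Ser2P at 2 h, since fewer members remained. Gene-end windows gave 2 gained and 0 lost for Ser2P at 2 h, and a wider window 1 lost at 4 h. Adding 10 letter-suffixed and read-through symbols gave 13.6% and 14% in the treated ab239364 lists. Except where stated, the cause was not tested.

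Leaving out 1 list at a time gave 13 to 23 gained and 0 to 2 lost members for ab239364, 6 to 9 and 0 to 0 for CST2316S in SUDHL5, and 8 to 19 and 1 to 4 in KARPAS422. It gave 1 to 14 and 3 to 19 for Ser2P at 2 h, 10 to 29 and 2 to 9 at 4 h, 13 to 21 and 0 to 1 for Ser5P at 2 h, and 7 to 23 and 0 to 5 at 4 h. For Pol II it gave 1 to 3 and 0 to 0 at 2 h and 0 to 1 and 0 to 0 at 4 h. Requiring fewer lists can only add calls. Calling within same-numbered pairs (a replicate block) leaves a call over all lists as it was by construction, with 12 gained with ab239364, for example.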

Other observations

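Of 22 genes of the machinery that KRAB zinc finger proteins recruit, 20 had CDK9 in at least 1 list, against 38.6% of all genes, and 13 had Ser5P in all 6 lists, against 23.6%. CDK9 was gained at 6 with ab239364 (HDAC1, DAXX, HDAC2, ATF7IP, TRIM28 and MORC3), at 6 with CST2316S in SUDHL5 (HDAC1, ATF7IP, MPHOSPH8, CHD3, MORC3 and ATRX) and at 4 in KARPAS422 (SMARCAD1, DAXX, MPHOSPH8 and MORC3), and lost at 0 in each. The gained shares of all genes were 7.57%, 6.31% and 4.38%. Among all genes with Ser5P in all 6 lists, 21.1% gained CDK9 with ab239364 and 19.1% with CST2316S in SUDHL5. TRIM28, the corepressor bound by the KRAB domain, lies on chromosome 19 itself. MORC3, a chromatin ATPase that silences retroelements, was gained in all 3 sets. MPHOSPH8, a subunit of the HUSH silencing complex, also gained Ser2P at 2 h and 4 h. CBX3, which encodes HP1 gamma, was the 1 gene of the 22 with CDK9 in all 12 lists. These genes were listed with earlier results known, and no test was made.

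ZNF genes on other chromosomes gained CDK9 in KARPAS422 at 22 of 237 (9.28%), above the 2.92% of members and the 4.38% of all genes, and this difference was not tested. Of the 10 letter-suffixed or read-through ZNF symbols of chromosome 19 that the rule leaves out, ZNF780A gained CDK9 in KARPAS422.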
